A study of Mus musculus with 8 samples.

Results

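The 10 genes described here belong to the inflammatory response and were read on 8 Illumina beadchips, each with RNA of cultured mouse bone marrow macrophages. They are the cytokine genes Tnf, Il1a, Il1b, Il6, Il12b and Il10, the antagonist gene Il1rn, the NF-kB feedback genes Nfkbia and Tnfaip3, and the prostaglandin synthase gene Ptgs2. The members were taken by gene symbol from the platform annotation, and every probe that carried 1 of the 10 symbols was used. Of the 10 genes, 9 had a probe, with 16 probes in all out of 45281 on the array, and no probe carried the name Il12b. Only 5 genes (Tnf, Il1a, Il1rn, Nfkbia and Tnfaip3), with 10 probes, were bright enough to be tested, by a minimum intensity of 100 on 4 or more arrays.

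The labels give 4 libraries of C57BL/6 wild-type mice (WT 1 to 4) and 4 of mice with genotype vav1-/- (KO 1 to 4). Mice were 7 to 12 weeks old and of both sexes, and no stimulus is named for any library. Vav1 encodes a signalling protein of blood cells, and the study asks how its absence changes macrophage expression. Whether each library is a separate animal or culture is not stated, so p-values refer only to the scatter among libraries, which may be technical. The macrophage markers fixed for the check were read in all libraries. All 7 with a probe passed the intensity minimum, and their summed intensity ran from 41321 to 59813 under the WT label and from 44316 to 50243 under the KO label. Of 27 probed marker genes of other cell types, 4 passed the minimum. These were S100a8 (174 to 255), S100a9 (82.4 to 124), F13a1 (97.7 to 134) and Cpa3 (78.9 to 107), while the T cell, B cell, NK cell, dendritic cell and stromal cell markers did not pass it.

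Some libraries went against their label or stood apart. The Vav1 probe read 1825, 1642, 267 and 384 in WT 1 to 4 and 1805, 1699, 308 and 288 in KO 1 to 4, so KO 1, KO 2, WT 3 and WT 4 went against their label. No library was moved to another group, and each direction is that of the libraries labelled KO against those labelled WT. WT 4 also stood apart, with correlations of 0.839 to 0.901 with the other 7 libraries, which correlated with each other at 0.971 to 0.996. Results are therefore given with and without these libraries.

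Tumour necrosis factor and interleukin 1 are ligands that macrophages release on sensing microbes or damage. Their receptors free the transcription factor NF-kB from its inhibitors, and NF-kB then induces the cytokine genes again. It also induces genes that end the signal. Nfkbia encodes IkappaB-alpha, which binds NF-kB and keeps it out of the nucleus, and Tnfaip3 encodes A20, a ubiquitin-editing enzyme that shuts down the signalling complexes upstream. Il1rn encodes the receptor antagonist that competes with interleukin 1 for its receptor. Resting macrophages are known to keep most of the cytokine genes near silence until they meet a stimulus.

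The promoters of 5 members are shown, because the feedback genes and the cytokine genes share NF-kB as a regulator and only some of them were read above the minimum here. The windows are from RefSeq (GRCm38.p6), 250 bases before to 50 after the start site, written 5′ to 3′ along the gene. Capitals mark matches to the NF-kB consensus of 10 bases: G, G, G, a purine, any pair of bases, a pair of pyrimidines, C, C, searched on both strands.
Nfkbia, chr12:55492598-55492897, minus strand: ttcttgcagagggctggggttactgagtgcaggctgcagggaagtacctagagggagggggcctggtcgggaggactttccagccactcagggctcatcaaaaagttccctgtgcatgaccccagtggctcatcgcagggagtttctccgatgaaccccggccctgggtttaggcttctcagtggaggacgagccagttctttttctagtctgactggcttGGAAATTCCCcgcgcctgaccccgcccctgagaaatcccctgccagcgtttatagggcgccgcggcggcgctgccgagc
Tnfaip3, chr10:19015361-19015660, minus strand: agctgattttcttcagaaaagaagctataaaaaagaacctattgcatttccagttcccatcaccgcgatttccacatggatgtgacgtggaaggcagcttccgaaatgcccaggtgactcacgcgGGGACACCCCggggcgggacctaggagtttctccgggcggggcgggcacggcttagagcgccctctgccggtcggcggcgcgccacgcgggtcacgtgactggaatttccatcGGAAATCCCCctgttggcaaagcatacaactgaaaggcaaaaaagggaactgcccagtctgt
Il6, chr5:30012864-30013163, plus strand: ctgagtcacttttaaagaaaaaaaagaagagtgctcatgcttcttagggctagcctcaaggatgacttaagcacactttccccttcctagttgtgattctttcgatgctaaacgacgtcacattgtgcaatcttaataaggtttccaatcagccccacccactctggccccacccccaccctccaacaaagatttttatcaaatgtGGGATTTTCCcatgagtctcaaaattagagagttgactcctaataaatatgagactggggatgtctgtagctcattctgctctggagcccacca
Tnf, chr17:35201958-35202257, minus strand: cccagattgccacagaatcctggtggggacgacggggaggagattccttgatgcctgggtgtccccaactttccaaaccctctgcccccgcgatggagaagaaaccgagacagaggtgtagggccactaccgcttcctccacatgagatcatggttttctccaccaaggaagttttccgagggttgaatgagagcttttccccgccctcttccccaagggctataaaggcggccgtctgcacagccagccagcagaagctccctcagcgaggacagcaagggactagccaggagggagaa
Il1a, chr2:129309923-129310222, minus strand: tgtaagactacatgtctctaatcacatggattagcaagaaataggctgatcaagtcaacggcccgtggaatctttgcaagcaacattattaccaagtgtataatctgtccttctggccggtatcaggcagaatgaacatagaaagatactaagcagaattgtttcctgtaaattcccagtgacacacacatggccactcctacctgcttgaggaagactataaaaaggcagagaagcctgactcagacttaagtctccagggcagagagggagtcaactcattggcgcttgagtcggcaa
Nfkbia has 1 match, 29 bases upstream of the start site. The Tnfaip3 window shown has matches 125 and 12 bases upstream, the first of them on both strands at the same letters. Il6 has 1 match, 44 bases upstream. The windows of Tnf, Il1a, Il1b, Il12b and Ptgs2 hold none. Nor do the 3 windows of Il1rn, some of which overlap, or the second window of Tnfaip3. RefSeq windows were matched for 9 of the 10 members, not for Il10, and 3 of their 12 windows hold a match against 8.46% of the 32851 windows of all genes. A match is a description of these letters and not a measured binding site.

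Il1b, Il6, Il10 and Ptgs2 had probes but did not pass the minimum. The median probe intensity was 86.2 on every array, because the authors' values had been brought to a common distribution. By its mean, the Il6 probe was brighter than 27.2% of all probes, the Il1b probe than 49.3% and the Il10 probe than 67.2%. Il1b, a secreted cytokine of fever and inflammation, read 81.1, 87.3, 91.7 and 79.4 in WT 1 to 4 and 92.0, 85.0, 78.8 and 89.3 in KO 1 to 4. Il6, a cytokine that drives the acute-phase response, read 91.5, 84.8, 79.1 and 82.8 in WT 1 to 4 and 80.3, 78.8, 79.5 and 80.3 in KO 1 to 4. For both genes no library reached 100 and the labels overlapped.

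Il10, an anti-inflammatory cytokine, came closest to the minimum among the genes that were not tested. It read 99.8, 93.0, 94.9 and 81.6 in WT 1 to 4 and 102, 94.9, 95.9 and 93.7 in KO 1 to 4, so that KO 1 alone passed 100 and WT 4 was the lowest. Ptgs2, the inducible cyclooxygenase that makes prostaglandin precursors, has 2 probes. The brighter read 85.5, 81.2, 85.8 and 92.6 in WT 1 to 4 and 85.8, 88.8, 82.9 and 74.3 in KO 1 to 4, and the dimmer lay between 74.5 and 82.4 in all 8 libraries. These intensities set no fold change, and a low level cannot be told apart from no level on a table without detection p-values.

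**Figure D1:**
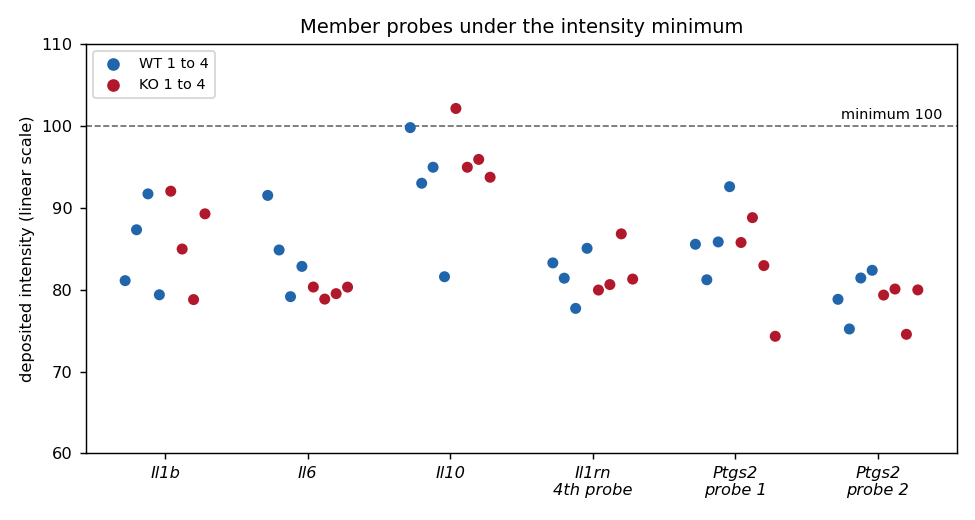
Intensity (vertical axis, linear scale, starting at 60) of the 6 member probes under the minimum, with 1 point for each library in the order WT 1 to 4 (blue) and KO 1 to 4 (red). Only the point of Il10 in KO 1 lies above the dashed line at 100, and the labels overlap on every probe.

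Tnf was read just above the minimum. On the brighter of its 2 probes (ILMN_2899863) the intensity was 158, 158, 109 and 81.6 in WT 1 to 4 and 137, 155, 121 and 101 in KO 1 to 4. The libraries numbered 1 and 2 of both labels were the 4 highest, and WT 4 was the lowest. The other probe (ILMN_2467245) read 121, 135, 99.1 and 141 in WT 1 to 4 and 142, 137, 91.1 and 95.5 in KO 1 to 4. It repeated the higher values of numbers 1 and 2 over WT 3, KO 3 and KO 4, but placed WT 4 among the highest.

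Il1a, a cytokine that stays largely inside the cell until damage releases it, had the opposite pattern. Its brighter probe (ILMN_1243066) read 140, 114, 184 and 110 in WT 1 to 4 and 121, 117, 185 and 173 in KO 1 to 4. Its other probe (ILMN_1227018) read 116, 108, 142 and 79.3 in WT 1 to 4 and 95.03, 96.7, 179 and 136 in KO 1 to 4. On both probes WT 3, KO 3 and KO 4 were the 3 highest libraries and WT 4 was the lowest. The mean of those 3 libraries was 1.47 times that of the 4 libraries numbered 1 and 2 on each probe.

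Il1rn varied most among the tested members. Its brightest probe (ILMN_3072427) read 499, 481, 250 and 317 in WT 1 to 4 and 598, 505, 267 and 222 in KO 1 to 4. The 4 libraries numbered 1 and 2 lay between 481 and 598 and the 4 numbered 3 and 4 between 222 and 317, whatever their label. The mean of numbers 1 and 2 was 2.11 times that of WT 3, KO 3 and KO 4. A second probe (ILMN_3151270) read 106, 110, 103 and 142 in WT 1 to 4 and 119, 118, 81.4 and 96.4 in KO 1 to 4, again with numbers 1 and 2 above WT 3, KO 3 and KO 4, but with WT 4 the highest of all. On the third (ILMN_2682566), which read 103, 121, 103 and 80.7 in WT 1 to 4 and 128, 123, 101 and 101 in KO 1 to 4, WT 3 reached just past WT 1 and WT 4 was the lowest. The fourth stayed between 77.7 and 86.8 and was not tested.

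The feedback genes did not follow the numbers. Tnfaip3 read 533, 447, 503 and 687 in WT 1 to 4 and 420, 384, 549 and 461 in KO 1 to 4, with WT 4 the highest library and KO 2 the lowest. Nfkbia was dimmer on each of its 2 probes. The brighter (ILMN_1218605) read 186, 137, 203 and 265 in WT 1 to 4 and 168, 211, 158 and 187 in KO 1 to 4. The other (ILMN_3001914) read 135, 155, 178 and 83.3 in WT 1 to 4 and 169, 167, 173 and 163 in KO 1 to 4. WT 4 was thus the highest library on one Nfkbia probe and the lowest on the other, while the 4 KO libraries lay within 158 to 211 on the first and 163 to 173 on the second.

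**Figure D2:**
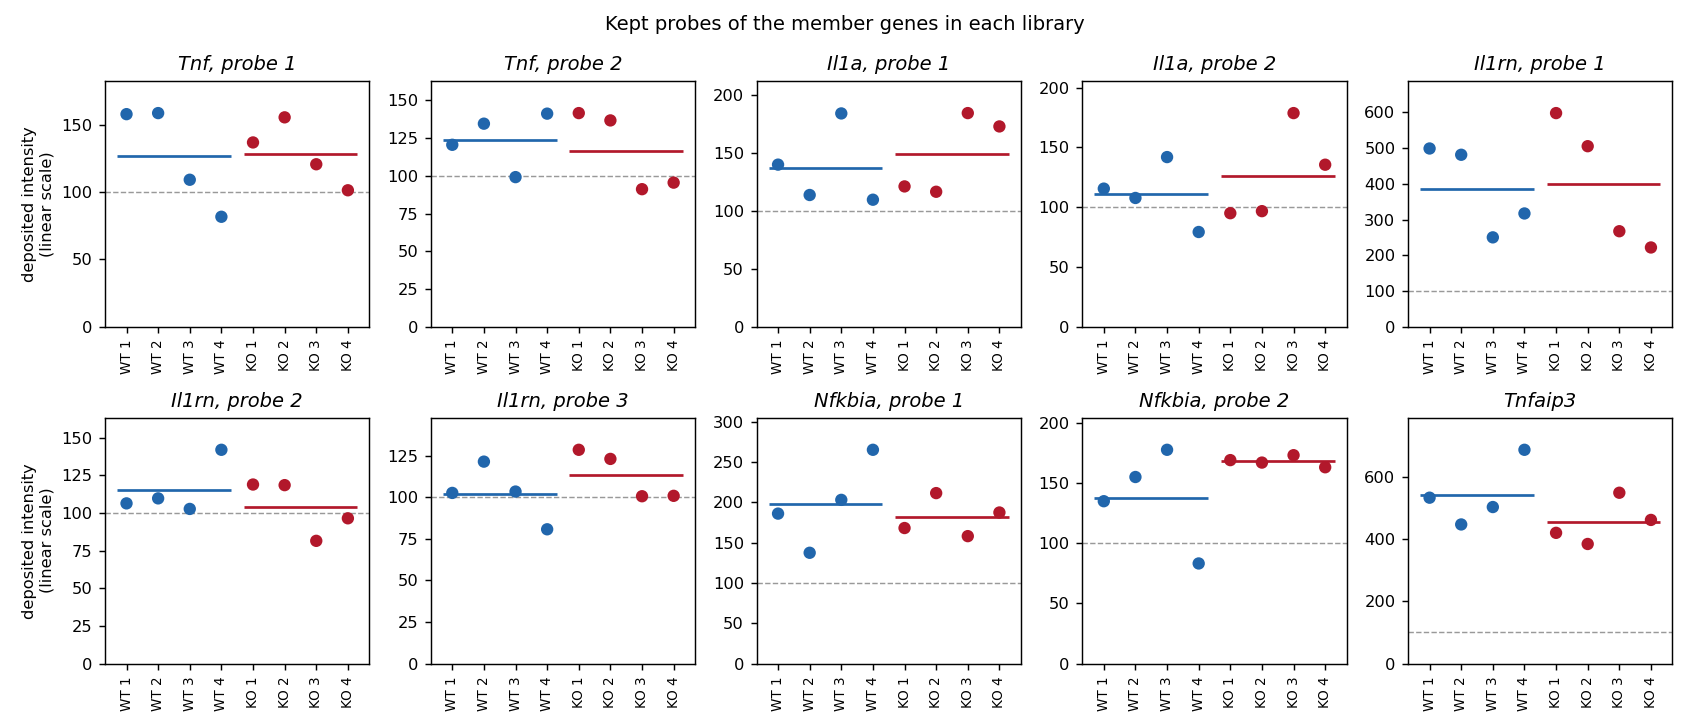
Intensity (vertical axis, linear scale from 0) of the 10 tested member probes in each library, with blue points for WT, red points for KO, a line at the mean of each label (n = 4) and a dashed line at 100. Il1rn probe 1 lies between 481 and 598 in numbers 1 and 2 of both labels and between 222 and 317 in numbers 3 and 4, and WT 4 is the highest library on Nfkbia probe 1 and the lowest on Nfkbia probe 2.

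Between the labels, no tested member passed. The fit was limma's on all 13479 probes kept, on log2 values after a background correction, with Benjamini-Hochberg adjustment and a threshold of 0.05. It called 0% of probes higher and 0% lower in KO over the whole array, and of the 5 members 0 were higher and 0 lower. Unadjusted p-values under 0.05 were found for 44 probes, or 0.326%, and for 0 members. Fold changes here are KO minus WT on the corrected log2 scale, where an added offset pulls those of dim probes toward 0. The Vav1 probe itself did not pass, at -0.05 ± 0.87 (SE) with a limma adjusted p of 0.981. Both labels held libraries with high and with low Vav1, so this comparison cannot show a difference that goes with the Vav1 level.

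Among the brightest probes of the 5 members, that of Tnfaip3 had the lowest p. Its mean intensity was 454 ± 70.9 (SD, n = 4) under the KO label and 542 ± 103 (SD, n = 4) under the WT label. The log2 fold change was -0.26 ± 0.18 (SE) with a limma adjusted p of 0.795. Without WT 4 it was -0.14 ± 0.14. Its direction was kept within the libraries numbered 1 and 2 (-0.30 ± 0.15) and within those numbered 3 and 4 (-0.23 ± 0.31), neither of which passed, with an adjusted p of 0.999 and 0.809.

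Nfkbia had 2 probes that differed in sign. The brighter, at 181 ± 23.5 (SD, n = 4) under KO and 198 ± 52.8 (SD, n = 4) under WT, gave -0.11 ± 0.22 (SE) with an adjusted p of 0.855. The other, at 168 ± 4.18 and 138 ± 40.4 (SD, n = 4 each), gave 0.42 ± 0.26 with an adjusted p of 0.795. The 2 probes shared a sign once WT 4 was left out, at 0.07 and 0.14.

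Il1rn gave -0.03 ± 0.38 (SE) on its brightest probe, with an adjusted p of 0.975. The means were 398 ± 182 (SD, n = 4) under KO and 387 ± 122 (SD, n = 4) under WT, so the spread within a label was many times the difference. The 95% interval of the log2 fold change ran from -0.88 to 0.83. Its 2 dimmer tested probes gave -0.20 and 0.20, and leaving out each library in turn moved the brightest between -0.28 and 0.23.

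Tnf and Il1a did not pass either. Tnf, at 128 ± 23.0 (SD, n = 4) under KO and 127 ± 37.9 (SD, n = 4) under WT on its brighter probe, gave 0.08 ± 0.29 (SE) with an adjusted p of 0.913. The other Tnf probe gave -0.14, and the brighter turned to -0.17 without WT 4. Il1a, at 149 ± 34.9 and 137 ± 34.3 (SD, n = 4 each), gave 0.15 ± 0.25 with an adjusted p of 0.831, and 0.03 when WT 4 was left out.

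The intervals were wide for the members. The median standard error was 0.25 over the 5 members against 0.18 over all kept probes, and a 95% interval there extended 0.40 to each side in the median probe. In none of the 5 members did the labels part into 4 and 4 without overlap, as they did in 1.13% of all 7982 genes. The median log2 fold change of the members was -0.03, beside -0.04 over all genes, and -0.11 beside -0.009 without WT 4. Of the 4 members with at least 2 tested probes, 3 had probes that differed in sign, as did 48.8% of all such genes.

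**Figure D3:**
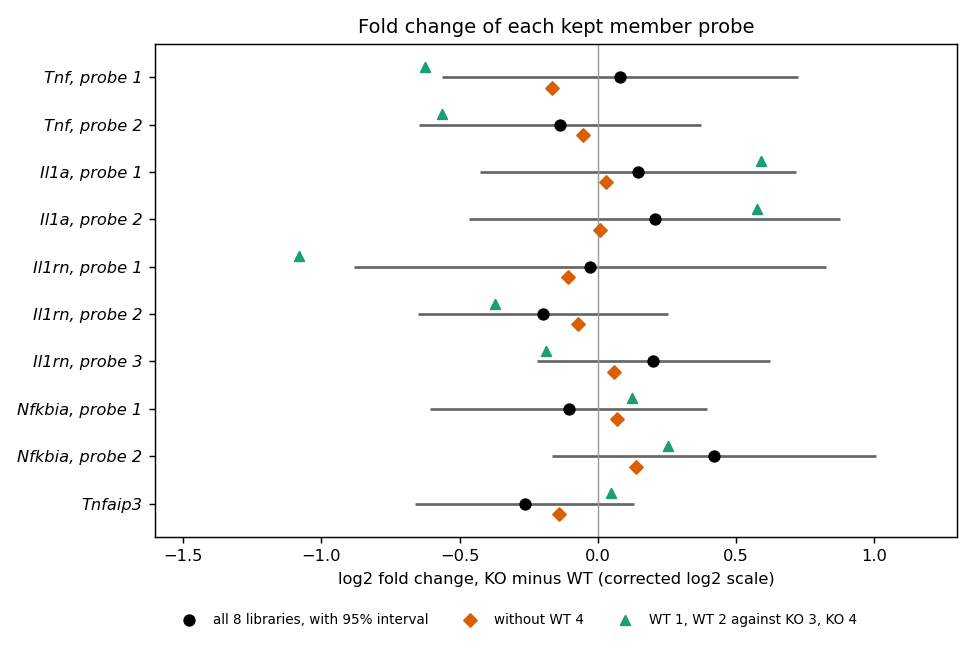
Log2 fold change of KO minus WT for each tested member probe (horizontal axis, corrected log2 scale), with black points and 95% intervals for all 8 libraries, orange diamonds without WT 4 and green triangles for WT 1 and WT 2 against KO 3 and KO 4. All 10 intervals include 0, and the triangles lie farthest out for Il1rn probe 1 (-1.08).

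With the 4 libraries that went against their label at Vav1 left out, WT 1 and WT 2 remain against KO 3 and KO 4. In that fit Il1rn, on its brightest probe, fell by 1.08 ± 0.17 (SE) on the log2 scale, with a limma adjusted p of 0.0497, against 0.764 to 1.00 in the other 20 settings tried. It was the only one of the 5 members called, among 0.413% of genes called lower and 0.2% called higher. The 2 dimmer tested Il1rn probes did not pass, at -0.37 (adjusted p = 0.913) and -0.19 (adjusted p = 1.00). Tnf was at -0.62 ± 0.17 (adjusted p = 0.331) and -0.56 ± 0.16 on its 2 probes, and Il1a at 0.59 ± 0.18 (adjusted p = 0.437) and 0.58 ± 0.19. Nfkbia and Tnfaip3 were at 0.13 and 0.05. In these 4 libraries the label and the number cannot be told apart. Within the libraries numbered 1 and 2, Il1rn was at 0.17 ± 0.15 between the labels, and within those numbered 3 and 4 at -0.23 ± 0.30, and it passed in neither, with an adjusted p of 0.999 and 0.808. Over all libraries but WT 4, a model with a term for the numbers put Il1rn at 0.09 ± 0.12 between the labels.

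The members that parted by number were the ligands Tnf and Il1a and the antagonist Il1rn. WT 3, KO 3 and KO 4 lay wholly above or below the 4 libraries numbered 1 and 2 in 3 of the 5 members, where 14.6% of all genes did so. Il1a was above, as were 6.59% of genes, and Tnf and Il1rn were below, as were 7.97%. Among genes with at least 2 tested probes, 5.14% parted in this way on at least 2 of them in 1 direction, and these 3 members were among them. With WT 4 counted among numbers 3 and 4, Tnf and Il1rn parted and Il1a did not, in a background of 7.83%. The number split was found in these data, at Vav1, and no label calls it a batch, so it is given with no test. Whether these gaps reflect transcript levels, cell makeup or sequence under a probe was not tested, and in bulk RNA fewer cells of a type and less RNA per cell cannot be told apart. Of the 7 macrophage markers, 2 parted by number, in opposite directions, and the other 5 did not. Cd14, a coreceptor for lipopolysaccharide, read 1100 to 1218 in numbers 1 and 2 and 337 to 637 in numbers 3 and 4. Mertk, a receptor for the uptake of dead cells, read 632 to 721 in numbers 1 and 2 and 741 to 1228 in numbers 3 and 4. The summed intensity of the 7 macrophage markers ran from 41321 to 50243 in numbers 1 and 2 and from 41847 to 59813 in numbers 3 and 4. Of the 4 markers of other cell types that passed the minimum, S100a9 and Cpa3 parted by number and S100a8 and F13a1 did not. S100a9 read 104 to 124 in numbers 1 and 2 and 82.4 to 94.2 in numbers 3 and 4. Cpa3 read 102 to 107 and 78.9 to 96.3, so both were lower in numbers 3 and 4, near the minimum. The part of any of these markers in the result was not tested.

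The spread over the libraries was widest for these 3 members. Without WT 4, the SD of Il1rn over 7 libraries was 0.63 on the log2 scale, larger than that of 99.2% of genes. The SD was 0.37 for Il1a, larger than in 95.8% of genes, and 0.33 for Tnf, larger than in 93.6%. Nfkbia was at 0.25 (86.1%) and Tnfaip3 at 0.20 (72.3%), with a median of 0.15 over all genes. Over all 8 libraries the median SD of all genes was 0.25, and the SDs of Il1rn and Tnfaip3 were 0.59 and 0.27. These were larger than in 94.0% and 57.7% of genes, beside 84.7% for Tnf, 79.0% for Il1a and 69.7% for Nfkbia. Il1rn, Il1a and Tnf had parted by number in the same 7 libraries, which itself widens an SD.

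WT 4 lay outside the range of the other 7 libraries in 4 of the 5 members, where 79% of all genes did. It was above the others in Nfkbia and Tnfaip3 and below them in Tnf and Il1a. Relative to the mean of the other 7, WT 4 stood at 0.65 for Nfkbia, 0.58 for Tnfaip3, -0.89 for Tnf and -0.48 for Il1a on the log2 scale, beside a median size of 0.52 over all genes. In 2 of the 4 members with several tested probes, Nfkbia and Il1rn, WT 4 was above the others on 1 probe and below them on another, and 34.4% of all such genes showed the same.

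Probes of 1 gene mostly ran together over the 7 libraries without WT 4. The 2 Il1a probes correlated at 0.92 over these 7 libraries and the 2 Tnf probes at 0.82, while the 3 tested Il1rn probes correlated at 0.76 to 0.79. The 2 Nfkbia probes correlated at 0.13. With WT 4 included, the values were 0.92 for Il1a, 0.25 for Tnf, -0.64 for Nfkbia and 0.47, 0.63 and -0.11 for the 3 pairs of Il1rn probes. Between genes over the 7 libraries, Tnf and Il1rn correlated at 0.90, Il1a and Il1rn at -0.91, Il1a and Tnfaip3 at 0.72, and Nfkbia and Tnfaip3 at -0.17. Over all 8 libraries these 4 values were 0.73, -0.74, 0.10 and 0.45, so WT 4 alone turned the sign between Nfkbia and Tnfaip3. These correlations share the libraries and the split by number and are given as a description.

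The genes most like each member over all 8 libraries were named by the highest Pearson r of log2 values among 7982 genes. For Il1rn these were Tle1 (0.989), a transcriptional corepressor, and Ceacam2 (0.985), an adhesion molecule, and the same genes came first without WT 4. Tnf was most like Mtmr11 (0.995) and Micall2 (0.985), and without WT 4 Insig2 (0.996) and Mtmr11 (0.990). Il1a was most like Ccrl2 (0.965), an atypical chemokine-binding receptor, and Fcgr3 (0.948), an Fc receptor, but without WT 4 most like Gng10 (0.993) and Snrk (0.993). Nfkbia was most like Mitf (0.991), a transcription factor of macrophages and osteoclasts, and Sugt1 (0.987), and without WT 4 Plekha3 (0.992) and Mitf (0.987). Tnfaip3 was most like Utp6 (0.981) and Vps13a (0.979), and without WT 4 Rilp (0.981) and Cwf19l2 (0.978). The genes named for Il1a and Tnfaip3 changed in full when that 1 library was left out. Each gene was read on its brightest tested probe. Over all 8 libraries that probe correlated with the gene's other tested probe at -0.64 for Nfkbia, 0.25 for Tnf and 0.92 for Il1a. For Il1rn the values were 0.47 and 0.63. The names for Nfkbia and Tnf over all 8 libraries thus describe that probe and not the gene's other probe. The highest of 7982 correlations over so few libraries can lie near 1 by selection alone, so the likenesses are a description only.

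Other genes of the pathway were taken from a list by role. Of 75 listed genes, 69 had a probe and 49 passed the minimum, and 0 were higher and 0 lower in KO at the threshold, with 0 at an unadjusted p under 0.05. Values were higher under KO in 19 and lower in 30, beside 3463 higher and 4519 lower among all 7982 genes. The median log2 fold change was -0.04, the same as over all genes to 2 decimals. Without WT 4 the median was 0.0005. The labels did not overlap in 3 of the 49 genes, Il6ra, Tnip2 and Tax1bp1, where they parted in 1.13% of all genes. Numbers 3 and 4 lay apart from numbers 1 and 2 in 3 of the 49, where 7.83% of all genes did. With WT 4 left out they lay apart in 7 of the 49, where 14.6% of all genes did.

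Among cytokines and their processing, 7 of 15 genes were tested. Casp1, the protease that cleaves pro-interleukin 1 beta, was read at 4852, 4519, 4797 and 5586 in WT 1 to 4 and at 4626, 4797, 4839 and 4776 in KO 1 to 4. Il18, a cytokine cut by the same protease, read 243, 222, 324 and 344 in WT 1 to 4 and 243, 254, 299 and 298 in KO 1 to 4. Its numbers 3 and 4 were all above its numbers 1 and 2, as in 3.7% of all genes. Tgfb1 read 207 in WT 4 and 340 to 637 in the other libraries. Casp1 and Il18 were chosen after their values were seen, as was Tgfb1.

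Of 11 receptors and decoys, 7 were tested. Tnfrsf1b, the second receptor of tumour necrosis factor, read 469, 541, 600 and 173 in WT 1 to 4 and 647, 519, 515 and 623 in KO 1 to 4, a log2 fold change of 0.55 ± 0.38 (SE) with a limma adjusted p of 0.795. Its fold change was 0.11 once WT 4 was left out. Il6ra, the interleukin 6 receptor, read 192, 192, 201 and 387 in WT 1 to 4 and 159, 174, 153 and 188 in KO 1 to 4, at -0.51 ± 0.25, and at -0.25 without WT 4. Each KO library was below each WT library at Il6ra. Il10rb, a chain of the interleukin 10 receptor, gave 0.25 ± 0.15 with 2346 in KO 4, and its 2 tested probes differed in sign.

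Of 14 genes that signal to NF-kB, 10 were tested, and all 4 probed NF-kB subunit genes were. Traf6, a ubiquitin ligase of the interleukin 1 and Toll-like receptor pathways, read 437, 422, 357 and 958 in WT 1 to 4 and 317, 337, 395 and 358 in KO 1 to 4. Its log2 fold change was -0.54 ± 0.29 (SE) with a limma adjusted p of 0.795, and -0.22 without WT 4. Rela, the main activating subunit, read 887, 874, 961 and 983 in WT 1 to 4 and 1035, 921, 862 and 960 in KO 1 to 4, at 0.03 ± 0.11. Nfkb2, Rel and Relb had log2 fold changes of -0.15, -0.07 and -0.02. Rela and these 3 subunits were chosen after their values were seen.

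Of 20 further inhibitors and feedback genes, 16 were tested. Values were lower under KO in 11 of them, beside 4519 of all 7982 genes. The median log2 fold change was -0.11, and -0.06 without WT 4. Tollip, an adaptor that restrains Toll-like receptor signalling, read 1141, 1482, 1259 and 697 in WT 1 to 4 and 1407, 1464, 1511 and 1558 in KO 1 to 4, at 0.44 ± 0.22 (SE) with an adjusted p of 0.795 in limma, and at 0.21 without WT 4. Tnip1 and Tnip2 encode proteins that bind A20. Tnip1 read 624, 862, 612 and 238 in WT 1 to 4 and 785, 570, 715 and 583 in KO 1 to 4, and its fold change of 0.33 turned to -0.07 without WT 4. Tnip2 was at 0.24 ± 0.13, with 128.6 to 162 under WT and 166 to 194 under KO, so the labels did not overlap, and at 0.15 without WT 4. Tax1bp1, an adaptor of A20, was at -0.24 ± 0.12, with 4249 to 5445 under WT and 3769 to 4033 under KO, again without overlap, and at -0.16 without WT 4. WT 4 lay outside the range of the other 7 libraries in all 16 genes of this group, and in 39 of the 49 list genes, where 79% of all genes did.

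Of 10 genes listed under prostaglandin synthesis, which took in leukotriene genes such as Alox5ap, 5 were tested and 0 passed. Their median log2 fold change was 0.10, and 0.01 without WT 4. Hpgds, which makes prostaglandin D2, read 1175, 989, 1327 and 690 in WT 1 to 4 and 1165, 1486, 970 and 1104 in KO 1 to 4. Alox5ap, the partner of 5-lipoxygenase in leukotriene synthesis, read 5132 to 6489 under WT and 4639 to 5513 under KO. Both were chosen after their values were seen, and both were read well above the minimum in every library while Ptgs2 was not.

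**Figure D4:**
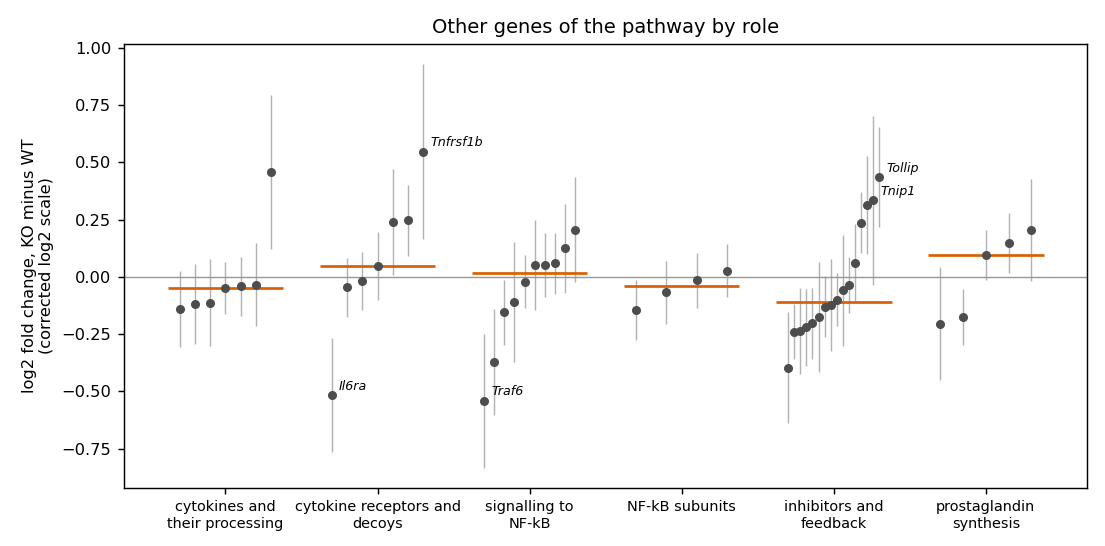
Log2 fold change of KO minus WT (vertical axis, corrected log2 scale) of the 49 tested genes of the pathway list, by role. Points are genes with their standard error over all 8 libraries, and orange lines are medians, which run from -0.11 in inhibitors and feedback to 0.10 in prostaglandin synthesis.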

How the data were processed

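Per the labels' protocols, RNA came from a Trizol extraction with column clean-up and was hybridised as biotinylated cRNA to Illumina beadchips. The authors' deposited intensities are on a linear scale, from 68.1 to 26278, and all 8 columns share their quantiles, as after quantile normalization. The software and any background treatment are not named in those sources. Another table's 16 per-sample columns, which match no label, were left out, so no detection p-values were at hand. For arrays, their number limits the precision.

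Groups follow the labels. Probes were named from the platform annotation, and symbols were looked up by gene identifier in RefSeq (GRCm38.p6), which changed 0. The deposited intensities were corrected with normexp (offset 50) and put on the log2 scale in limma 3.58.1 (R 4.3.3). Probes that reached 100 on at least 4 arrays were kept (13479 probes, 7982 genes), and the kept probe with the highest mean stood for its gene. A model of 2 groups was fitted with lmFit and eBayes, two-sided, adjusted by Benjamini-Hochberg over all kept probes at 0.05, and tested on simulated data. Fold changes in the text are from this fit and intensities are the deposited values. The members, the lists and the libraries to leave out were chosen with earlier results of these data known.

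By rule the text names Vav1, all members, the 3 list genes with the smallest p in each direction, the 3 whose WT 4 value lies farthest outside the others, and the 2 genes most like each member. Figures were drawn with matplotlib 3.10.9.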

Additional observations from a re-analysis of the deposited data

Results flagged for a closer look

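In 48 groups of 4 libraries, 5 held a library past Dixon's 95% critical value for the gap to its nearest neighbour over the range of the group. Chance alone gives about 1 in 20 only in groups not chosen by their values. The list genes among them were named for a small p or a distant WT 4 in these data, so that share is no reference for them. Those gaps took up 0.859 to 0.970 of the range. KO 3 read 74.5 on the dimmer Ptgs2 probe, with 79.3 to 80.1 in the other KO libraries, all under the intensity minimum. KO 2 read 194 at Tnip2, with 166 to 167 in the others, and KO 4 read 2346 at Il10rb, with 1955 to 2010. WT 4 was high at Il6ra, with 387 against 192 to 201 in the other WT libraries, and at Traf6, with 958 against 357 to 437.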

How the results depend on the processing

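No member and no pathway list gene passed the threshold under the offset of 16, log2 without correction, no filter, the minimum of 150, the trend, array weights, a threshold of 0.10, numbers 1 and 2 alone, numbers 3 and 4 alone, or any left-out library. The exception is the fit of WT 1 and WT 2 against KO 3 and KO 4, with 69 probes and 1 member called (Il1rn, at -1.08). With the replicate number as a block, 0 probes and 0 members passed. The labels give no pairing by number. Deviations of same-numbered WT and KO libraries correlated at 0.46, -0.17, 0.14 and 0.13, and those of other WT and KO pairs at -0.43 to 0.38. These values overlap and do not settle whether libraries were paired. With the block the SE of Il1rn was 0.18, against 0.38 in the main fit. With a term for numbers 1 and 2 against 3 and 4 instead, it was 0.16. Directions of the members were not stable, and the cause was not tested. In that fit of 4 libraries, Tnf turned to -0.62, Nfkbia to 0.13, Tnfaip3 to 0.046 and Tnip1 to -0.19. In numbers 1 and 2 alone, Il1a was at -0.10, Il1rn at 0.17, Nfkbia at 0.27, Tnf at -0.14 and Tnip1 at -0.14. A fit chosen after seeing the data left out WT 4 and added a term for the numbers. Between the labels it gave -0.083 for Il1a, 0.086 for Il1rn, 0.056 for Nfkbia, -0.074 for Tnf and -0.051 for Tnip1. Array weights gave -0.082 for Il1a, 0.00013 for Il1rn and -0.14 for Tnf. Averaging the probes of a gene gave 0.16 for Nfkbia, -0.029 for Tnf and -0.0058 for Il10rb. Leaving out 1 library at a time gave -0.28 to 0.23 for Il1rn, -0.17 to 0.23 for Tnf, -0.29 to 0.068 for Nfkbia and -0.074 to 0.58 for Tnip1. Tnfaip3 kept its direction in 20 of 21 alternatives, and Il6ra, Tax1bp1, Tnfrsf1b, Tnip2, Tollip and Traf6 in 21 of 21. Several alternatives, such as the trend, the filters and the replicate block, leave the fold change itself unchanged and so cannot turn it. Those list genes were also named for a small p or a distant WT 4 in these data, so the counts are a description only.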
